A study of Rattus norvegicus with 2 samples.

Results

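A set of 10 genes that the transcription factor p53 is known to switch on was followed in rat neural stem cells after exposure to the inhaled anaesthetic sevoflurane. The genes were Cdkn1a, Mdm2, Ccng1, Gadd45a, Btg2, Phlda3, Rrm2b, Perp, Gdf15 and Plk2, and a probe was taken for a gene where its RefSeq mRNA accession belonged to it. All 10 genes had a probe, out of 13862 genes named in this way, and each was read by 1 probe with 1 spot per array. All 10 were measured, meaning well above background on both arrays, as were 10028 genes in all.

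The cells were neural stem cells, which renew themselves and give rise to neurons and glia, taken from the hippocampus of Sprague-Dawley rats at postnatal day 3, grown without serum and with the growth factor bFGF, and used at passage 3. The sevoflurane group was kept under 2.4% sevoflurane for 6 h and the control group under 0% sevoflurane for the same time. Both then spent 24 h in an ordinary incubator with 5% CO2, although other label fields name only the 6 h point, which leaves the time of harvest unclear. There was 1 array per group, an Agilent 1-colour array, and the labels do not say whether its RNA came from a single culture or a pool. No p-value can be given, no difference has a replicate check, and a difference counts here from 2-fold (1 log2 unit) upward.

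The protein p53 is a transcription factor that is held at a low level in unstressed cells and accumulates after DNA damage and other stress. It binds response elements made of paired half-sites and raises genes that halt the cell cycle (Cdkn1a), supply nucleotides for DNA repair (Rrm2b), promote cell death (Perp, Phlda3) or limit p53 itself (Mdm2, Ccng1). In neural stem cells this pathway is known for restraining self-renewal and proliferation. Several of these genes also respond to other stress signals, among them Gdf15, Gadd45a, Btg2 and Plk2.

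The upstream sequence of these genes can be read directly in the windows that reach from 250 bases before to 50 bases after the gene start in RefSeq (assembly GRCr8). Windows were found for 9 of the 10 genes, with 2 starts for Gdf15, and none was matched for Rrm2b. On both strands, the p53 half-site in its usual degenerate form was found in 3 of the 10 windows, those of Cdkn1a, Ccng1 and Gadd45a, against 7.98% of all 33469 windows. The full cyclic AMP response element TGACGTCA, a site of the CREB and ATF family, was found in 2 windows, those of Btg2 and Plk2, against 1.83% of all windows. These 5 windows are shown because they hold the matches to these sites. Capitals mark the half-site in the first 3 and the cyclic AMP response element in the last 2, and positions are counted in bases before the start.
Cdkn1a (chr20:7150682-7150981, + strand): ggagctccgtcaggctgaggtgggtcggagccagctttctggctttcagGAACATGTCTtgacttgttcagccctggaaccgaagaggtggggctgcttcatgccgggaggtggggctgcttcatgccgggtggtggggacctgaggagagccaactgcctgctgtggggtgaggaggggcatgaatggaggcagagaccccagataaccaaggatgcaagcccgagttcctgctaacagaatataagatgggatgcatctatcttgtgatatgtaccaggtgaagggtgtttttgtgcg
Gadd45a (chr4:97486750-97487049, - strand): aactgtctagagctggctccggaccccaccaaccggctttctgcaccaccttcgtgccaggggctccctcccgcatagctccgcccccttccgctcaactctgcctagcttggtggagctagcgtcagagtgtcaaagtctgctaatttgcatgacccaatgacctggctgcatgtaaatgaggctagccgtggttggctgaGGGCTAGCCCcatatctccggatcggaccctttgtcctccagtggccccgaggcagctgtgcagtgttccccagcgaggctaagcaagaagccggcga
Ccng1 (chr10:25684827-25685126, - strand): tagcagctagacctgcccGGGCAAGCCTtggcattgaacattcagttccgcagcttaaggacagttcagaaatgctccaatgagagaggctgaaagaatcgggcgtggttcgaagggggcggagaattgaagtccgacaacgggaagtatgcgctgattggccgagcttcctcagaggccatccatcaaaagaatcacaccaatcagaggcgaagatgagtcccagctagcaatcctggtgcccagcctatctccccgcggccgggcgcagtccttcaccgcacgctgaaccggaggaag
Btg2 (chr13:48087641-48087940, - strand): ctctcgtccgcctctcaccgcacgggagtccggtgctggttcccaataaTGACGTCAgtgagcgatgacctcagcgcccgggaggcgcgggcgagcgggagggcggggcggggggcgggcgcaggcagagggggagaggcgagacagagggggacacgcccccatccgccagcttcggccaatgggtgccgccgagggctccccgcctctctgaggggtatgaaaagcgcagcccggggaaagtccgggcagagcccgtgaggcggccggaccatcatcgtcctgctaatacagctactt
Plk2 (chr2:43702286-43702585, + strand): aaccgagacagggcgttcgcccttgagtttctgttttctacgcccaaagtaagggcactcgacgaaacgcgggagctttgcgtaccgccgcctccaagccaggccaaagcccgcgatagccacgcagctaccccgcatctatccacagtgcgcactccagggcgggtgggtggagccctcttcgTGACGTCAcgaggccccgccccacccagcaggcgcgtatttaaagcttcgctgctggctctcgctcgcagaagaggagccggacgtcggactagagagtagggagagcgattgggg

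The half-site began 201 bases before the start in Cdkn1a, 48 in Gadd45a and 232 in Ccng1. The cyclic AMP response element began 201 bases before the start in Btg2 and 66 in Plk2. Of the other motifs searched, the GC box GGGCGG was in 8 of 10 windows (33.1% of all windows), CCAAT in 6 (37.5%), the core TGACG of the cyclic AMP response element, which the full element contains, in 5 (21.2%), and TGACNNNGC, the antioxidant response element, in 4 (12.1%). The AP-1 motif TGANTCA was in the window of Perp (7.33% of all windows) and the TATAAA motif in the second window of Gdf15 (14.2%). The motif TGATGNAA, used here for amino acid response elements, was in 0 of 10 windows (3.98% of all), as was the E-box CACGTG (6.42%). Such matches describe letters in a short window: the table's start may not be the one used in these cells, and response elements outside the window were not searched. For p53, only single half-sites with an exact match were searched. Whether a second, less exact half-site lies beside a marked one was not read, so the marked sites may differ in this.

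Before the members are read, 2 facts of the arrays bear on them. The 75th percentile of the processed signal, by which each array was scaled, was 359 (sevoflurane) and 692 (control), so scaling adds 0.95 to each log2 ratio of raw signals. The lower quartile went the other way, at 16.4 and 3.97, and the median difference fell from 1.75 in the dimmest of 10 equal level groups of probes to -0.16 in group 8. Each member is therefore set beside the 500 measured probes nearest to it in mean level. The median raw signal of negative control spots was 50.5 (sevoflurane) and 42.0 (control), and their median processed signal was 2.33 and 1.79. Spike-in control spots had a median processed signal of 13.2 and 1.91, which on the control array was near that of the negative controls. Replicate spots of the same probe scattered by 0.088 and 0.068 log2 units (median SD), and differences of probes for the same gene by 0.11 (median SD, 237 genes). All errors given with signals and differences below are those that Feature Extraction estimated for the spot, and they leave out differences between cultures.

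At least 2-fold higher levels in the sevoflurane sample were seen for 6 of 10 members, where 28.2% of all measured genes reached this, and 0 were at least 2-fold lower, where 11.2% were. Their median difference was 2.03, against 0.27 over all measured genes. After the intensity-dependent correction, which removes the trend with level, the counts were 6 higher and 0 lower, against 15.0% and 15.5% of all genes, and the median was 1.08 against 0.00. After quantile normalization they were 5 and 0, against 13.6% and 19.6%. The higher genes were Gdf15, Perp, Rrm2b, Cdkn1a, Gadd45a and Phlda3, and the other 4, Ccng1, Mdm2, Btg2 and Plk2, stayed within 2-fold. The raw processed signal was higher on the sevoflurane array for the same 6 members and lower for the other 4. Scaling adds 0.95 to every log2 ratio, close to the 1 log2 unit of the 2-fold rule. The raw signal therefore makes nearly the same cut and is not a separate check.

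**Figure D1:**
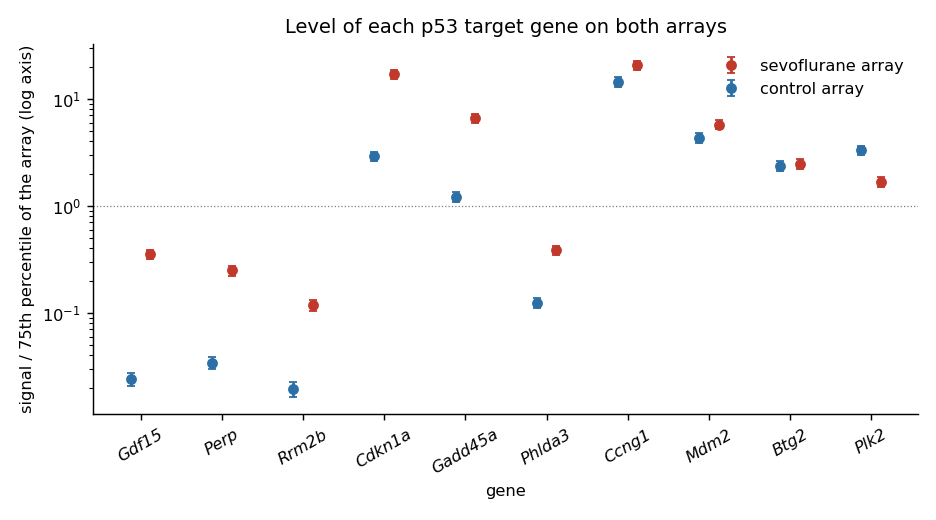
Processed signal of each p53 target gene divided by the 75th percentile of its array (log axis), for the sevoflurane array (red) and the control array (blue). Genes are ordered by difference, and bars are the spot error estimated by Feature Extraction. Gdf15 to Phlda3 lie clearly higher on the sevoflurane array, whereas the bars of Btg2 overlap and Plk2 lies lower.

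Among the genes that halt the cell cycle, Cdkn1a encodes p21, the inhibitor of cyclin-dependent kinases through which p53 arrests cells before DNA synthesis. Its signal was 6079 ± 608 (spot error) with sevoflurane and 2010 ± 201 in the control. After scaling this was a difference of 2.54 ± 0.20 log2 units, 5.83-fold higher with sevoflurane. Probes of like level had a median of -0.14, and the middle range from their 10th to their 90th percentile ran from -1.24 to 0.93, so Cdkn1a lay above it. Over 8 ways of scaling (the one used, 6 alternatives and 1 more chosen after seeing the data), it lay between 1.45 and 2.58 and was at least 2-fold higher in all 8. These 8 are not separate checks. The scaling used and those to a median differ only by a constant added to every gene. For the members, the authors' value table gave nearly the same differences as quantile normalization.

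Gadd45a, which encodes a small protein that binds p21, PCNA and the kinase MAP3K4 and acts in arrest and DNA repair, behaved much like Cdkn1a. Its signal was 2362 ± 236 with sevoflurane and 842 ± 84.2 in the control. The difference was 2.43 ± 0.20, or 5.40-fold, above the range of -1.40 to 0.98 in probes of like level. It stayed at least 2-fold higher in all 8 scalings, between 1.34 and 2.61.

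Btg2, an antiproliferative cofactor of the mRNA deadenylase complex that marks neural progenitors about to make neurons, did not share this difference. Its signal was 889 ± 89.0 with sevoflurane and 1639 ± 164 in the control. After scaling the difference was 0.06 ± 0.20, smaller than its spot error, and its sign was positive in only 4 of 8 scalings (-1.03 to 0.24). Plk2, a polo-like kinase that is induced by p53 and, in neurons, by activity, was the only member with a lower value in all 8 scalings. Its signal was 602 ± 60.3 with sevoflurane and 2295 ± 229 in the control. The scaled difference was -0.98 ± 0.20, just short of 2-fold (1.98-fold lower), and ran from -2.08 to -0.81 over the scalings, past 2-fold in 2 of them. It lay within the range of probes of like level (-1.46 to 1.09). Btg2 and Plk2 are the members whose windows above hold the cyclic AMP response element, but a link between the element and their levels was not tested.

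The members that limit p53 itself, Mdm2 and Ccng1, also stayed within 2-fold of the control. Mdm2 encodes the ubiquitin ligase that marks p53 for degradation. Its signal was 2064 ± 206 with sevoflurane and 2985 ± 299 in the control. The difference was 0.41 ± 0.20, against a median of -0.09 in probes of like level, and it was below 2-fold in all 8 scalings, positive in 7 (-0.68 to 0.53). Ccng1, the gene of cyclin G1, which recruits a phosphatase that activates MDM2, had signals of 7398 ± 740 and 10007 ± 1001. Its difference was 0.51 ± 0.20, against 0.20 in probes of like level, and it too was positive in 7 of 8 scalings and never past 2-fold (-0.59 to 0.54). Ccng1 thus carries an exact half-site in its window, as Cdkn1a and Gadd45a do, but not their difference on the arrays. Pairing of these half-sites was not searched, and a link between the sites and the levels was not tested.

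Rrm2b encodes p53R2, a small subunit of ribonucleotide reductase that supplies deoxynucleotides outside of S phase. Its signal was 42.3 ± 4.83 with sevoflurane and 13.4 ± 2.23 in the control, a scaled difference of 2.60 ± 0.29 (6.06-fold). Probes of like level had a median of 1.73 and a range of 0.23 to 2.95, within which Rrm2b lay. After the intensity-dependent correction it was at 1.05, and at 0.97 both after quantile normalization and in the authors' value table, below 2-fold. Its unsubtracted control signal of 56.0 was close to the 49.0 reached by the 95th percentile of negative control spots. Rrm2b was at least 2-fold higher in 6 of 8 scalings, between 0.97 and 2.60.

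Of the genes tied to cell death, Perp, a desmosome and membrane protein that takes part in p53-dependent apoptosis, had signals of 89.3 ± 9.24 and 23.7 ± 2.99. The difference was 2.86 ± 0.23, or 7.25-fold, above the range of -0.62 to 2.64 in probes of like level. It was at least 2-fold higher in all 8 scalings, between 1.63 and 2.86. Phlda3, whose product blocks the kinase AKT by competing for membrane lipids, had signals of 139 ± 14.0 and 85.9 ± 8.76. Its difference of 1.64 ± 0.21 (3.11-fold) lay within the range of its neighbours in level (-1.33 to 2.35). It was at least 2-fold higher in 7 of 8 scalings and at 0.54 when arrays were scaled to the median of all probes.

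Gdf15, the gene of a secreted stress cytokine of the TGF-beta superfamily that acts on feeding through the brainstem, had the highest difference of the members under the scaling used. Its signal was 127 ± 12.9 with sevoflurane and 16.6 ± 2.39 in the control, a difference of 3.88 ± 0.25 (14.7-fold). Probes of like level ranged from -0.63 to 2.62 with a median of 1.25, and Gdf15 lay above them. It was at least 2-fold higher in all 8 scalings but its size depended on them, from 2.19 after normexp, where Gadd45a (2.37) and Cdkn1a (2.31) were above it, to 3.88. Relative to the median of probes of like level, Gdf15 was higher by 2.63 and Cdkn1a by 2.68. The unsubtracted control signal was 59.0, close to the negative controls, and 186 with sevoflurane.

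In all, 4 of 10 members (Cdkn1a, Gadd45a, Perp and Gdf15) lay above the middle range of probes of like level, 0 below it and 6 within it. Of the 4, Perp (2.86 ± 0.24) passed the upper end of its range (2.64) by less than its spot error. Under the scaling used, the differences of Rrm2b, Cdkn1a and Gadd45a lay within each other's errors, so their order is not resolved there. Perp, at 2.86, lay within the error of Rrm2b (2.60 ± 0.29), so their order is not resolved there either. The order depended on the scaling. After the intensity-dependent correction Rrm2b was at 1.05 and Perp at 1.78, below Cdkn1a (2.58) and Gadd45a (2.61). After quantile normalization Rrm2b was at 0.97 and Perp at 1.75, below Cdkn1a (2.46) and Gadd45a (2.45). Under the scaling used, a gap wider than the errors separated Phlda3, at 1.64, from Ccng1, at 0.51. Mdm2 and Ccng1 did not differ from each other beyond their errors, while Plk2 stood below all other members.

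**Figure D2:**
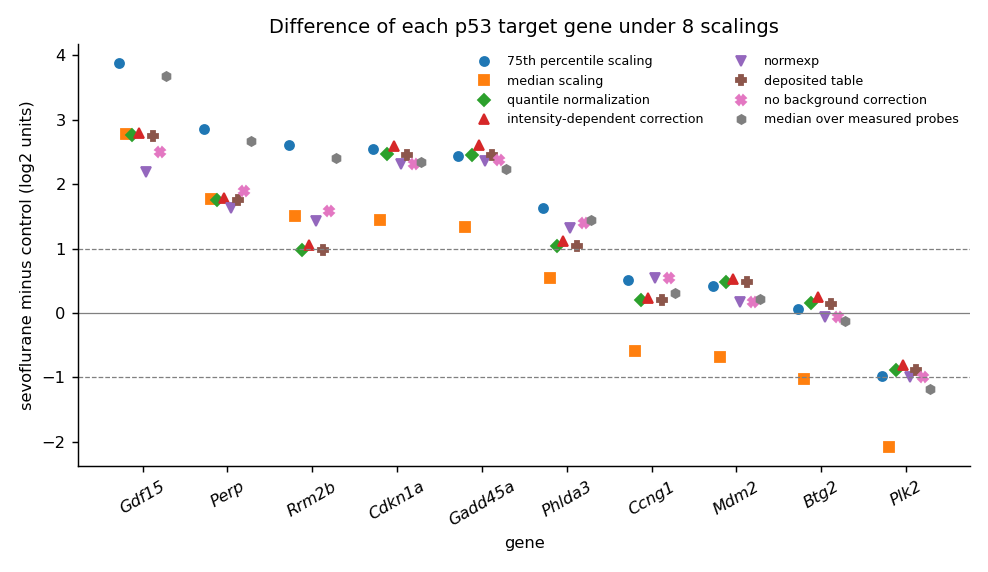
Difference of each p53 target gene (sevoflurane minus control, log2 units) under 8 scalings, with dashed lines at 2-fold. Gdf15, Perp, Cdkn1a and Gadd45a stay above the upper line in all 8, Plk2 stays below 0, and Ccng1, Mdm2 and Btg2 lie on both sides of 0.

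**Figure D3:**
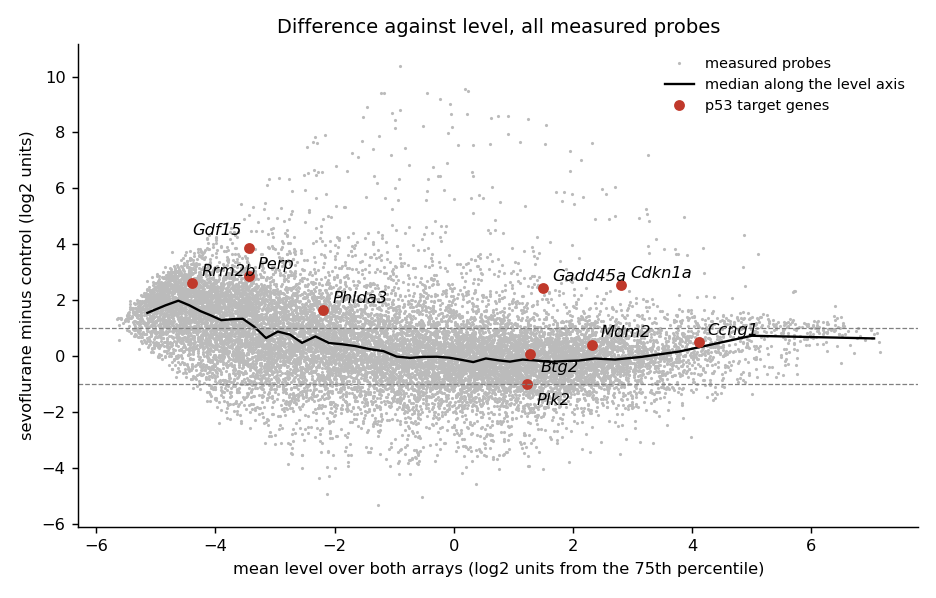
Difference (sevoflurane minus control, log2 units) against mean level for all 16047 measured probes (grey), with their median along the level axis (black) and the p53 target genes (red). The grey cloud bends upward at low level, where Gdf15, Perp and Rrm2b lie, while Cdkn1a and Gadd45a stand out in a bright range where the median is near 0.

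Further p53 targets give a wider view of the pathway. Of 33 such genes in a list, 22 had a probe and 20 were measured. Of these 20, 7 were at least 2-fold higher (35.0%, beside 28.2% of all genes) and 1 was lower (5.00%, beside 11.2%), with a median of 0.31 against 0.27 over all genes. After the intensity-dependent correction 4 were higher (20.0%, beside 15.0%) and 0 lower (beside 15.5%). Among those with the highest absolute difference were the ephrin receptor gene Epha2 at 2.67, Sesn2, a leucine sensor and antioxidant also induced through ATF4, at 2.57, and the tetraspanin gene Cd82 at 1.99. Epha2 and Sesn2 were at least 2-fold higher in all 8 scalings and Cd82 in 7. The apoptosis gene Bax, a direct p53 target, was at 0.88 (513 and 538), positive in 7 of 8 scalings and below 2-fold in all. Zmat3, an RNA-binding p53 target, was at -0.21 (1722 and 3833). Ppm1d, the phosphatase gene that shuts the p53 response off, was at -1.14 (601 and 2555) and negative in all 8 scalings, past 2-fold in 7. Pmaip1 and Fas, a BH3-only gene and a death receptor gene, were well above background on the sevoflurane array only. As lower bounds they were at least 4.58-fold and 3.08-fold higher there, with the control level set to the gene's own signal there or to the dimmest probe called well above background, whichever was higher. With arrays scaled to the median of all probes these bounds were 2.14-fold and 1.44-fold. Both genes are dim, where differences run high: the dimmest group of measured probes had a median difference of 1.75 log2 units, above the bound of 1.62 for Fas. Detection on the sevoflurane array only was also common over the arrays. Of 24629 probes, 20538 were well above background on the sevoflurane array, 16443 on the control array and 16047 on both. Bbc3 and Sesn1 had no probe matched through an accession.

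A list of p53 pathway regulators was read next. Of 17 measured genes in this list, 6 were higher by 2-fold or more (35.3%, beside 28.2% of all genes) and 1 was lower (5.88%, beside 11.2%), and their median was 0.46. After the intensity-dependent correction 2 were higher (11.8%, beside 15.0%) and 1 lower (5.88%, beside 15.5%). Chek2, a checkpoint kinase gene of the DNA damage response, stood apart at 5.66 ± 0.21 (signals 1149 and 43.7) and was at least 2-fold higher in all 8 scalings. It rests on 1 probe. The kinase gene Hipk2 was at 1.48, Brca1 at 1.41 and the nuclease gene Mre11 at 1.36, but after the correction these were at 0.37, -0.37 and 0.12. Mdm4, the p53 inhibitor related to Mdm2, was at 1.26 (645 and 519), beside 0.41 for Mdm2, and was positive in all 8 scalings and past 2-fold in 7.

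Close relatives of the members were read in the same way. Of 16 measured paralogues, 4 were at least 2-fold higher (25%, beside 28.2% of all genes) and 2 lower (12.5%, beside 11.2%). Their median of 0.27 was that of all measured genes. After the intensity-dependent correction 5 were higher (31.2%, beside 15.0%) and 2 lower (12.5%, beside 15.5%), with a median of 0.02. Beside Cdkn1a, the related inhibitor gene Cdkn1b (p27) was at -0.43 and Cdkn1c (p57) at 1.24, with its other probes at 1.15 and 1.31. Beside Gadd45a, Gadd45g was at 1.29 and Gadd45b at 0.92, the last positive in 7 of 8 scalings. Ccng2, the cyclin G2 gene and a FOXO target, was at -1.74 (196 and 1264) and at least 2-fold lower in all 8 scalings, unlike Ccng1. The ribonucleotide reductase genes of dividing cells, Rrm1 and Rrm2, were at 0.20 (positive in 5 of 8 scalings) and -0.01 (negative in all 8). Rrm2b was at 2.60, but it is far dimmer than both. After the intensity-dependent correction Rrm1 was at 0.00 and Rrm2 at -0.22, beside Rrm2b at 1.05. Phlda1, a pleckstrin homology gene like Phlda3, was at 1.39, and Gdf1, a TGF-beta family gene like Gdf15, at -1.59.

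Most genes through which the members act stayed within 2-fold, although scaling to the median of all probes put 8 of them at least 2-fold lower. Of 17 measured partners, 15 stayed within 2-fold. The 1 higher gene (5.88%, beside 28.2% of all genes) was Ccnd2, the cyclin D2 gene, at 1.62, and the 1 lower gene (5.88%, beside 11.2%) was Rbl2, the gene of the pocket protein p130, at -1.09. The median was 0.13. After the intensity-dependent correction 1 partner was higher (5.88%, beside 15.0%) and 3 were lower (17.6%, beside 15.5%). The deadenylase gene Cnot7, a partner of Btg2, was at -0.88, the kinase gene Map3k4, a partner of Gadd45a, at -0.67, and Pcna at 0.14, positive in only 1 of 8 scalings. Cell cycle genes that p53 represses through p21 were read too. Of 14 measured, 12 stayed within 2-fold, 2 were higher (14.3%, beside 28.2% of all genes) and 0 lower (beside 11.2%), and their median was 0.28. With the intensity-dependent correction 2 were higher (14.3%, beside 15.0%) and 0 lower (beside 15.5%). The mitosis genes Aurkb and Ube2c were at 1.05 and 1.03 and Bub1 at 0.86, each positive in 7 of 8 scalings, and Prc1 was at -0.67, negative in all 8. The smaller differences of Plk1 (-0.37), Ccna2 (-0.27) and Mybl2 (-0.19) were also negative in all 8, and were picked out after their values were seen. Of the 8 scalings, only the one to the median of all probes put any of these genes at least 2-fold lower (4 genes).

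Genes of the integrated stress response, in which ATF4 and CHOP raise amino acid and redox genes, were also read, since Gdf15 and Gadd45a are known to respond to that pathway as well as to p53. Of 16 measured, 11 were at least 2-fold higher (68.8%, beside 28.2% of all genes) and 0 lower (beside 11.2%), and their median was 2.28. After the intensity-dependent correction 12 were higher (75%, beside 15.0%) and 0 lower (beside 15.5%). Trib3, a pseudokinase gene, was at 4.87, the hormone gene Fgf21 at 3.89 (98.6 and 12.9, a dim control signal, and 1.78 under normexp), the cystine transporter gene Slc7a11 at 3.66, Cebpb at 3.50 and Ddit3, the gene of CHOP, at 2.68. Atf4 was at 0.98 and Atf3 at 0.88, both positive in 7 of 8 scalings, and Vldlr, a lipoprotein receptor gene, at -0.48 and negative in all 8. Vldlr was picked out after its values were seen. Sesn2 is in this list and among the p53 targets. The part of either pathway in the members' values was not tested.

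**Figure D4:**
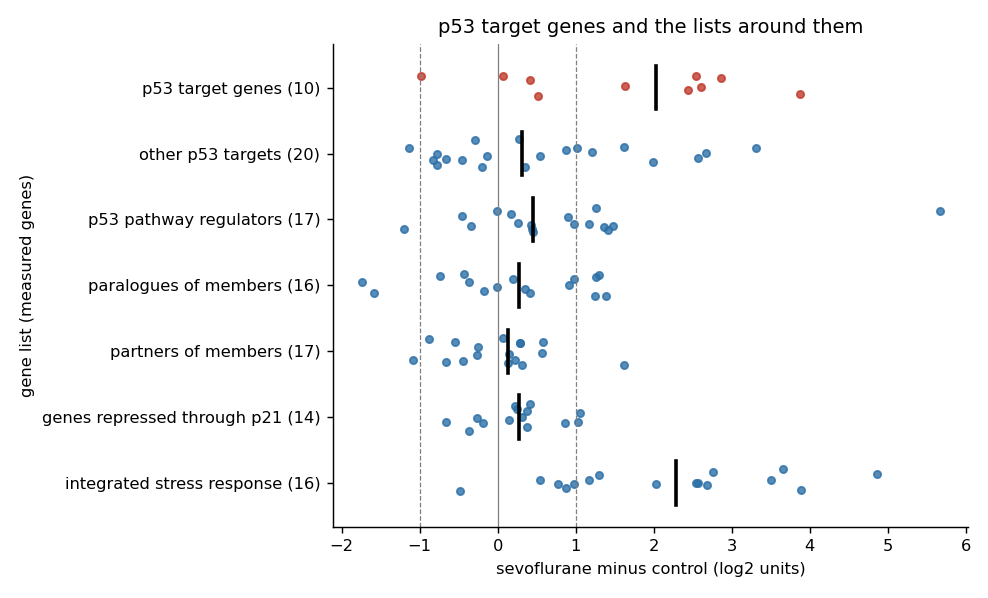
Difference (sevoflurane minus control, log2 units) of each measured gene in the p53 target genes (red) and in 6 lists around them (blue); black bars are medians, dashed lines 2-fold, and the number of measured genes is in brackets. The p53 target genes fall into a higher group of 6 and a group of 4 near or below 0, and their median of 2.03 lies beside 2.28 for the integrated stress response list and 0.31 for the other p53 targets, while after the intensity-dependent correction these medians were 1.08, 1.95 and 0.16.

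The labelled cell type was checked against its markers. All 12 neural stem and progenitor markers with a probe were measured on both arrays, among them Nes, Sox2 and Vim, with 3 of the 12 at least 2-fold higher, 2 lower and a median of -0.47. Their summed level, in multiples of the array's 75th percentile, was 105 with sevoflurane and 92.4 in the control, but without Vim, the brightest, the other 11 summed to 31.8 and 53.7. Markers of other cells differed between the arrays, and the microglia, astrocyte and oligodendrocyte lineage lists held genes going both ways. Over all measured genes, 28.2% were at least 2-fold higher and 11.2% lower. The summed level of neuron markers was 53.2 against 138 (0 of 10 genes at least 2-fold higher, 6 lower), of microglia markers 6.28 against 17.9 (2 and 6 of 10), of astrocyte markers 1.93 against 5.75 (3 and 2 of 7) and of oligodendrocyte lineage markers 15.6 against 5.11 (3 and 2 of 9). Bcas1 alone made 11.2 and 1.05 of the last sums, and the other 8 oligodendrocyte lineage markers summed to 4.41 and 4.06. Sparcl1 alone made 1.17 and 4.30 of the astrocyte sums, and the other 6 astrocyte markers summed to 0.75 and 1.45. Red cell markers were at 144 against 26.0 (9 and 0 of 9), mesenchymal and pericyte markers at 120 against 74.4 (6 and 0 of 10) and endothelial markers at 0.49 against 0.11 (3 and 0 of 3). After the intensity-dependent correction the counts higher and lower were 0 and 8 for neuron, 1 and 6 for microglia, 1 and 4 for astrocyte, 2 and 2 for oligodendrocyte lineage, 7 and 0 for red cell, 5 and 0 for mesenchymal and 1 and 0 for endothelial markers. Over all measured genes, 15.0% were then higher and 15.5% lower. The microglial genes Itgam and Cx3cr1 were not well above background on either array. Fewer cells of a type and less RNA per cell cannot be told apart in such samples, and the part of these markers in the members' differences was not tested. Each array had its own scan day, which cannot be told apart from the group.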

How the data were processed

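Total RNA was labelled with Cy3 by random priming, per the labels' protocols, and hybridised to 1 array per group. The deposited scanner files hold spot intensity; per the file headers, the software was Agilent Feature Extraction 11.0.1.1, run on an array designed on rn4, with no scaling between arrays. The deposited value table holds log2 intensities normalized by a method not given in the sources used here; its correlation with the log2 scanner signals was 0.991 for the sevoflurane column and 0.993 for the control column, and its medians were 5.61 and 5.60.

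Control spots and outlier spots (521 and 580 of 42136) were left out, the log2 processed signal was averaged over spots of a probe (24629 usable probes), and each array's 75th percentile was subtracted. No spot was saturated. RefSeq accessions named 14248 of 15291 mRNA probes through RefSeq's table for GRCr8. Where a gene had several measured probes, the one of highest mean level was used. Named genes are all members, the 4 highest absolute differences of each list, and a fixed set of p53 genes; some of these are not reported here. Members, lists and markers were chosen with earlier results of these data known. Alternatives were other scalings, normexp in limma 3.58.1 on the median spot signal (the files hold no mean signal), lowess in statsmodels 0.14.6, other fold rules, no filter on dim probes, and averaged probes. The 75th percentile, median, quantile and intensity-dependent scalings were run on simulated arrays with known shifts in some probes. Both simulated arrays had the control levels, apart from spot noise and a constant shift. They held no trend with level and no difference in background, so that run cannot show how the scalings handle these features. The number of arrays limits the precision.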

Additional observations from a re-analysis of the deposited data

How the results depend on the processing

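Of 258 values recomputed under an alternative, 201 kept their direction and their side of the 2-fold rule, or stayed within 1.5 times their count. Part of the 201 could not change, so this share is no measure of robustness. Each member has a single probe and passes the filter, so averaging probes or lifting the filter returns the same member values and counts. Keeping outlier spots left the members' differences nearly unchanged. The values that did change follow, and their causes were not tested. In this design 1 array per group is the main limit, and dim control signals limit Gdf15, Perp, Rrm2b and Fgf21. Cdkn1a, Gadd45a, Perp and Gdf15 were at least 2-fold higher under every alternative run. With arrays scaled to the median of all probes, which shifts all genes down, Mdm2 was at -0.68, Ccng1 at -0.59, Btg2 at -1.03, Phlda3 at 0.54 and Plk2 at -2.08. The counts higher and lower were then 5 and 2 for the members, 3 and 9 for other p53 targets, 1 and 4 for the p53 pathway regulators, 0 and 7 for paralogues, 0 and 8 for partners, 0 and 4 for genes repressed through p21, and 8 and 1 for the integrated stress response. With the median of measured probes only, an alternative chosen after seeing the data, Btg2 was at -0.13 and Plk2 at -1.18; 1 member, 2 other p53 targets and 2 partners were lower, and 0 genes repressed through p21 higher. Quantile normalization gave Rrm2b 0.97, 4 other p53 targets higher and 2 lower, 2 regulators higher and 2 lower, 3 partners lower and 1 stress response gene lower. The deposited table gave Rrm2b 0.97, 4 other p53 targets higher and 2 lower, 2 regulators higher, 3 partners lower and 1 stress response gene lower. The intensity-dependent correction gave 4 other p53 targets higher and 0 lower, 2 regulators higher and 3 partners lower. Normexp put Btg2 at -0.060, with 3 regulators higher, 0 lower and 0 genes repressed through p21 higher; without background correction Btg2 was at -0.061, with 0 regulators lower and 1 gene repressed through p21 higher. With a 1.5-fold rule, 1 member (Plk2), 5 other p53 targets, 3 partners and 1 gene repressed through p21 were lower. With a 3-fold rule, 1 regulator, 0 paralogues and 0 genes repressed through p21 were higher, and 0 other p53 targets, 0 regulators and 0 partners lower. Without a filter on dim probes and with averaged probes, every count stayed within 1.5 times. No paired analysis was possible because each group has 1 array and no test was made.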
